A study of Caenorhabditis elegans with 12 samples.

Results

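The assembled coding loci on chromosome X are 502 transcribed regions that the authors reconstructed from the sequenced libraries and listed, under names beginning with MXLOC, beside the annotated genes in their table of mRNA levels. A locus was taken as a member when its name, without the leading M, stood on chromosome X in the deposited table of assembled transcripts, and 1 further X locus, which spans col-178 and col-179, was not included. The members are 502 of 3167 assembled coding loci, and the 2664 autosomal ones served as background. RNA of whole *Caenorhabditis elegans* worms was sequenced from CN30, a strain whose genotype is labelled trans-nuclear, and from N2, the laboratory wild type, in a study of mitochondrial polymorphism and ageing. CN30 was sampled in 3 libraries at day 0 and in 1 library at each of days 6, 9 and 12, and N2 in the same way. Worms of both strains ate *E. coli* OP50 at 20 °C. The labels name neither the parents of CN30 nor separate cultures behind the 3 day-0 libraries, so p-values measure only the spread between these libraries.

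Hermaphrodites of *C. elegans* carry a pair of X chromosomes and males a lone X. In the soma of hermaphrodites the dosage compensation complex, a condensin-like assembly, binds both X chromosomes and lowers their transcription. In the germ line the X is largely silent for much of development, sperm genes are scarce on it, and X transcripts become more plentiful in oogenesis. The X is known to be rich in genes used in neurons, muscle and other somatic tissue.

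Values are FPKM, fragments scaled by transcript length and by library size, and the sequencing depth is unknown. Of the 502 members, 499 overlapped an annotated gene on the same strand, and 3 overlapped none on either strand. The overlapped gene was protein coding for 475 members, a pseudogene for 23 and a piRNA gene alone for 1. Members are named here by the protein-coding gene on the same strand that shares most bases with them. Where no coding gene overlapped, another gene on that strand gave the name. A member is not the gene itself, since 139 members ran over at least 2 coding genes, and for 453 the gene also had a row of its own in the same table. How reads were divided between a locus row and a gene row cannot be told apart. For 151 members a gene lay on the opposite strand, and whether the libraries kept strand is not stated. The members lay on both strands, 248 on plus and 254 on minus. Their longest transcripts had a median of 12 exons, against 10 for autosomal loci, and 3 members had a single exon, against 24 autosomal loci. No member was listed at 0 in all 12 libraries, 200 reached 1 FPKM in every library, and 52 stayed under 1 FPKM throughout. A fit took genes with at least 1 FPKM in at least 3 of its libraries, which left 91 members in no fit.

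Summed mRNA FPKM lay between 726252 and 779302 in the later libraries and between 874694 and 911271 at day 0. N2 day-0 replicate 2 stood apart from the other day-0 libraries of its strain. Its X median was 1.37 FPKM, against 1.84 and 2.07 in replicates 1 and 3, and the counts and large changes that it moves are given with and without it. Markers of several tissues moved strongly with age, whereas those of the intestine overlapped between the ages in both strains. The summed FPKM of 7 sperm markers was 13.7 to 85.7 in the later CN30 libraries and 1862.2 to 1953.4 in CN30 at day 0, and it was 4.5 to 34.8 in the later N2 libraries and 1546.4 to 1913.0 in N2 at day 0. For 8 oocyte markers it was 3587.7 to 4392.0 later and 1428.8 to 1631.4 at day 0 in CN30, and 4315.1 to 5288.7 later and 1079.3 to 1707.1 at day 0 in N2. For 7 muscle markers it was 484.5 to 897.5 later and 4441.6 to 5011.5 at day 0 in CN30, and 371.8 to 439.3 later and 5007.3 to 5646.9 at day 0 in N2. For 7 cuticle markers it was 99.1 to 1088.0 later and 4696.7 to 5313.8 at day 0 in CN30. In N2 it was 230.9 to 466.1 later and 4330.9 to 7582.5 at day 0. For 6 germline markers it was 1034.0 to 1151.6 later and 855.6 to 914.0 at day 0 in CN30. In N2 it was 1308.3 to 1403.5 later and 939.8 to 1140.6 at day 0. For 7 intestine markers it was 2371.8 to 7486.5 later and 6664.6 to 6897.4 at day 0 in CN30. In N2 it was 2608.6 to 10008.4 later and 5886.7 to 7833.2 at day 0. None of the markers was listed at 0 in all 12 libraries. The part of tissue make-up in the age results below was not tested. In whole worms, fewer cells of a type and less RNA per cell cannot be told apart.

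The median X locus was less expressed than the median autosomal locus in every library. In CN30 the X median was 2.06, 2.34 and 2.07 FPKM in the 3 day-0 libraries and 2.30, 2.54 and 2.36 FPKM at days 6, 9 and 12. In N2 it was 1.84, 1.37 and 2.07 FPKM at day 0 and 1.37, 1.36 and 1.78 FPKM at days 6, 9 and 12. All later CN30 medians thus lay above all later N2 medians, whereas at day 0 the strains overlapped. Autosomal medians ran from 5.34 to 6.13 FPKM in CN30 and from 4.42 to 5.98 FPKM in N2. The X median was below the median of each of the 5 autosomes in all 12 libraries. Chromosome V came nearest, with medians of 1.54 to 3.30 FPKM. The gap was narrowest in CN30 at day 9, with medians of 2.54 FPKM for X and 2.56 FPKM for chromosome V. As a percentage of the autosomal median, the X median was 36.4, 38.2 and 38.3% in CN30 at day 0 and 41.2, 44.3 and 44.2% at days 6, 9 and 12. In N2 it was 33.6, 30.7 and 34.6% at day 0 and 30.6, 30.8 and 35.7% later. These are descriptions of 12 libraries and carry no test.

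**Figure D1:**
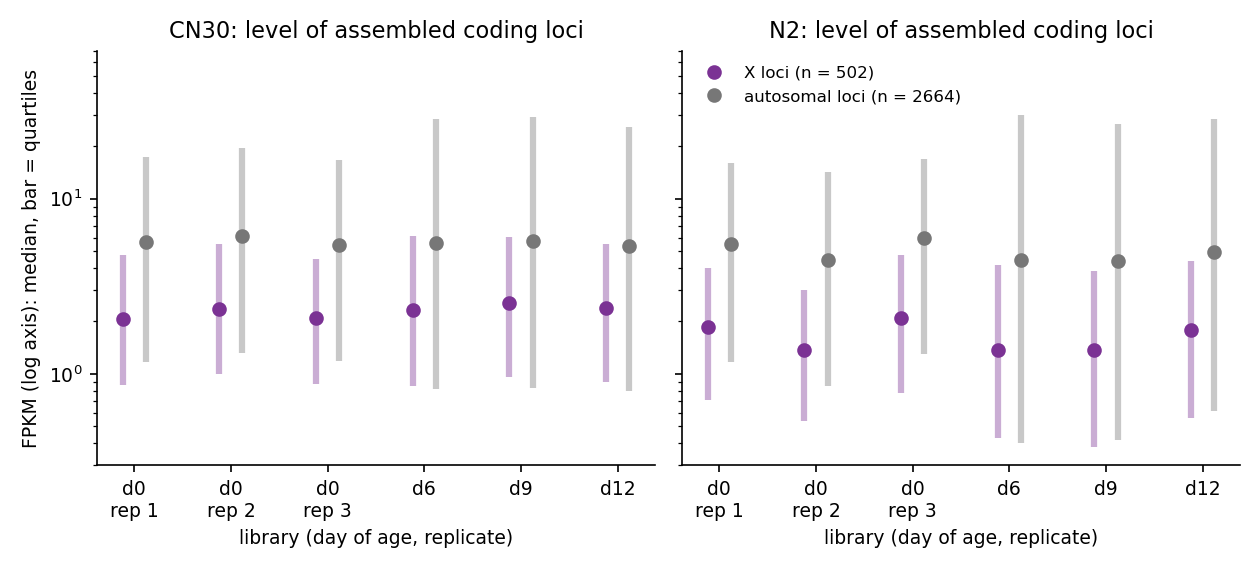
FPKM (log axis) of the 502 X loci and 2664 autosomal loci in each of the 12 libraries, CN30 left and N2 right, with points at the median and bars over the middle quartiles. The X median is 1.36 to 2.54 FPKM and stays below the autosomal median of 4.42 to 6.13 FPKM in every library.

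A few members carried much of the X signal at day 0. The locus of the cuticle collagen col-167, the locus of unc-27, which encodes a troponin I of body-wall muscle, and the locus of bcat-1, a branched-chain amino acid transaminase, held 2.6 to 8.4% of the summed X FPKM in the 6 later libraries, against 40.9 to 47.1% in the 6 day-0 libraries. These 3 members have the highest mean over the 12 libraries. The X share of the FPKM of all assembled loci was 4.08 to 4.36% in the later CN30 libraries and 7.13 to 7.84% in CN30 at day 0. It was 3.20 to 3.25% in the later N2 libraries and 5.55 to 7.23% in N2 at day 0. Without those 3 loci, the X sum was 2399 to 2510 FPKM later and 2366 to 2567 FPKM at day 0 in CN30, so that the ages overlapped. In N2 it was 1773 to 1934 FPKM later and 1581 to 2203 FPKM at day 0, which overlapped too.

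At day 0 the strains differed at few X loci, and most of those were higher in CN30. Of 355 members tested, 10 were higher and 2 lower in CN30 (limma with Benjamini-Hochberg adjustment over all genes tested, threshold 0.05), which is 3.38% against 3.68% of all genes tested (2.07% higher and 1.61% lower). The median log2 difference of the X loci tested was 0.26, against 0.15 for autosomal loci and 0.08 for all genes. The largest rise was at the locus over pgp-5, pgp-6, pgp-7 and pgp-8 (MXLOC_022097, X:10854381-10876254, minus strand, WBcel235), a cluster of P-glycoprotein ABC transporter genes. It had 15.2, 14.3 and 25.1 FPKM in CN30 at day 0, against 0.55, 0.58 and 0.65 FPKM in N2 at day 0. At days 6, 9 and 12 it had 7.59, 8.54 and 16.7 FPKM in CN30, against 0.43, 0.75 and 0.98 FPKM in N2. Every CN30 library lay above every N2 library. The log2 difference was 3.55 ± 0.22 (SE) at day 0 (adjusted p = 0.000983) and 2.73 ± 0.21 at days 6 to 12 (adjusted p = 0.0227).

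The rows of the single pgp genes did not follow the locus at day 0. The pgp-6 row had 5.45, 7.64 and 9.74 FPKM in CN30 at day 0, against 16.32, 44.98 and 19.95 FPKM in N2 at day 0, a log2 difference of -1.60 ± 0.39 that did not pass (adjusted p = 0.0898). The pgp-5 row had 3.28, 3.63 and 4.49 FPKM in CN30 at day 0, against 5.35, 12.95 and 5.76 FPKM in N2. For both genes every CN30 library lay below every N2 library at day 0, opposite to the locus. At days 6, 9 and 12 the pgp-5 row had 1.24, 0.59 and 1.42 FPKM in CN30 and 0.37, 0.12 and 0 FPKM in N2. It was thus higher in CN30 at each later day, as the locus was. The pgp-6 row had 2.37, 3.41 and 4.63 FPKM in CN30 and 2.13, 1.27 and 5.35 FPKM in N2 later (limma, 0.30, adjusted p = 0.464). The pgp-7 and pgp-8 rows stayed under 1 FPKM in all 12 libraries. A level of the cluster as a whole can therefore not be read from the locus row alone.

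**Figure D2:**
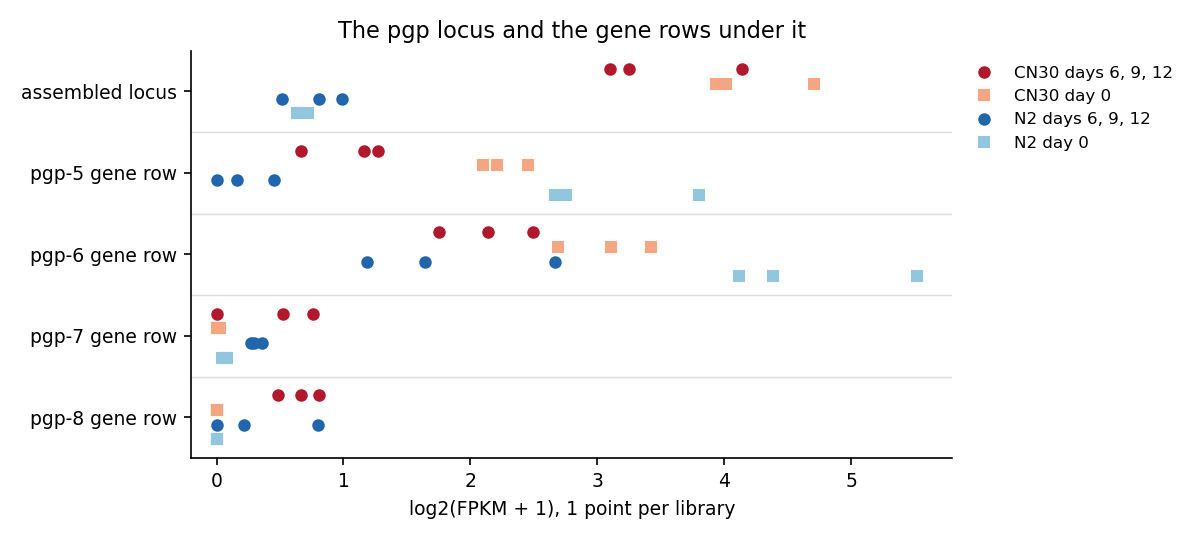
log2(FPKM + 1) of the assembled locus over the pgp cluster and of the 4 gene rows under it, with 1 point per library and colours for strain and age class. The locus is higher in every CN30 library than in any N2 library, whereas the pgp-5 and pgp-6 rows are lower in CN30 than in N2 at day 0.

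Other day-0 rises were smaller. The H03A11.2 locus (MXLOC_022537, X:15226244-15230621) had 16.19, 16.65 and 18.13 FPKM in CN30 and 4.40, 4.56 and 5.52 FPKM in N2 at day 0, a log2 difference of 1.63 ± 0.12 (adjusted p = 0.00158). The C24A3.1 locus (MXLOC_020224, X:9001239-9004143) had 14.9, 18.7 and 18.1 FPKM in CN30 and 4.98, 6.75 and 6.31 FPKM in N2, a difference of 1.38 ± 0.14 (adjusted p = 0.00566). Neither pair of groups overlapped, and both loci were higher in CN30 than in N2 at days 6 to 12 as well. The later strain difference was 1.48 ± 0.17 (adjusted p = 0.0278) for H03A11.2 and 2.0 ± 0.18 (adjusted p = 0.0241) for C24A3.1. The gene row of C24A3.1 was at most 0.31 FPKM in any library. That of H03A11.2 held 23.1 to 26.7 FPKM in CN30 and 24.0 to 30.3 FPKM in N2 at day 0, so that the strains overlapped there.

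The loci of lec-9, a galectin, and of mua-6, an intermediate filament protein that links skin to muscle, passed the test at day 0 and did not pass it later, which does not show that the ages differ. The lec-9 locus had 29.82, 34.95 and 26 FPKM in CN30 and 15.58, 12.76 and 16.40 FPKM in N2 at day 0 (0.97 ± 0.14, adjusted p = 0.0191). Its log2 difference at days 6 to 12 was -0.09 ± 0.17 (adjusted p = 0.713). The lec-9 gene row had 114.9, 118.19 and 127.71 FPKM in CN30 and 123.4, 120.47 and 109.58 FPKM in N2 at day 0. The strains overlapped in that row, and it did not pass (limma, 0.03, adjusted p = 0.814). The mua-6 locus had 20.5, 20.2 and 21.3 FPKM in CN30 and 11.7, 9.62 and 11.5 FPKM in N2 (0.86 ± 0.10, adjusted p = 0.0084), and its later difference was -0.04 ± 0.20 (adjusted p = 0.893). The mua-6 gene row had 86.61 to 94.47 FPKM in CN30 and 53.57 to 70.23 FPKM in N2 at day 0. Its difference had the same sign and did not pass (limma, 0.51, adjusted p = 0.0758). The mua-6 locus also runs over sgk-1, a serum- and glucocorticoid-inducible kinase, whose own row was listed at 0 in all 3 CN30 day-0 libraries and had 8.23, 3.52 and 7.98 FPKM in N2. The remaining rises were the loci of E02H4.4, F49E10.4, ZK402.5, R09F10.1 and F49E2.5, and the falls were the loci of AC8.3 and of the pseudogene WBGene00008349. These were singled out after their values were seen. E02H4.4 had 4.05, 5.34 and 4.03 FPKM in CN30 and 0.17, 0.13 and 0.14 FPKM in N2 at day 0 (2.25 ± 0.14, adjusted p = 0.001). The R09F10.1 gene row showed the same order as its locus, with 16.9, 20.54 and 14.96 FPKM in CN30 and 0.52, 0 and 0.24 FPKM in N2.

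The day-0 count changed with the libraries left out. Such a fit also has fewer libraries to measure the spread, so a lower count does not show that the calls rested on that library. The median log2 difference of the X loci tested was 0.27, 0.21 and 0.28 without CN30 replicate 1, 2 or 3, against 0.26. Without N2 replicate 2, 28 members were higher and 8 lower, and without CN30 replicate 1, 2 or 3 the calls numbered 2, 1 and 1. Without N2 replicate 1, 5 were called. Under quantile normalization 15 were higher and 4 lower, and under median-ratio rescaling 11 and 4.

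In older worms 46 X loci passed the test between strains, nearly all of them higher in CN30. Of 346 members tested at days 6 to 12, 43 were higher and 3 lower in CN30 (limma with day as a factor, adjusted p under 0.05), which is 13.3% against 13% of all genes tested (9.77% higher and 3.21% lower). The median log2 difference was 0.34 for X loci, -0.01 for autosomal loci and 0.06 for all genes tested. The 43 rises spanned log2 differences of 0.53 to 2.73, and 19 of them averaged under 5 FPKM in the later CN30 libraries. Besides the pgp, C24A3.1 and H03A11.2 loci, the largest among the more abundant were W03G11.4 and nipi-3. The nipi-3 locus (MXLOC_020904, X:15607972-15620186, over a Tribbles-type pseudokinase of the response to infection) had 3.69, 8.54 and 11.7 FPKM in CN30 at days 6, 9 and 12, against 1.27, 1.62 and 3.90 FPKM in N2 (1.43 ± 0.22, adjusted p = 0.0321). CN30 was higher at each day, though N2 at day 12 exceeded CN30 at day 6. The W03G11.4 locus (MXLOC_022231) had 8.13, 10.6 and 9.17 FPKM in CN30 and 1.72, 2.03 and 5.53 FPKM in N2 (1.44 ± 0.30, adjusted p = 0.0474).

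The rises also included dlg-1, nhr-25 and dgk-1. The locus of dlg-1, the Discs large scaffold of epithelial junctions, had 29.1, 38.8 and 40.1 FPKM at days 6, 9 and 12 in CN30, against 9.40, 9.31 and 27.7 FPKM in N2 (1.33, adjusted p = 0.0499), so that N2 day 12 came close to CN30 day 6. The locus of nhr-25, a nuclear hormone receptor of the epidermis, averaged 3.46 FPKM in CN30 and 0.853 FPKM in N2 (1.30, adjusted p = 0.0457). The locus of dgk-1, a diacylglycerol kinase that dampens synaptic transmission, averaged 4.34 FPKM in CN30 and 1.58 FPKM in N2 (1.04, adjusted p = 0.0363). These genes were picked after their values were seen. The 3 falls were the loci of cpr-6, a cathepsin B-like protease, of dot-1.5, a gene of the DOT1 family of histone methyltransferases, and of the pseudogene WBGene00008349. The cpr-6 locus (MXLOC_019996) had 12.8, 7.87 and 3.93 FPKM in CN30 at days 6, 9 and 12, against 21.7, 23.6 and 7.74 FPKM in N2 (-1.01 ± 0.20, adjusted p = 0.0437). The dot-1.5 locus had 3.72, 2.60 and 2.65 FPKM in CN30 and 7.96, 6.31 and 4.97 FPKM in N2 (-0.89 ± 0.17, adjusted p = 0.041).

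The later count also changed with the libraries left out, with the same limit as at day 0. The median log2 difference was 0.29 to 0.36 without day 6 or day 9 of either strain, against 0.34. Without day 6 or day 9 of either strain, limma called 0 members, and 57 to 89 had an unadjusted p under 0.05. It called 31 members when N2 day 12 was left out, and 21 when CN30 day 12 was. Under quantile normalization 9 members were higher and 5 lower, with a median log2 difference of 0.03. With no filter on low values limma called 0, with 177 at an unadjusted p under 0.05. Of 295 members tested at both ages, 6 were higher in CN30 at both (F49E10.4, C24A3.1, F49E2.5, ZK402.5, the pgp locus and H03A11.2), 1 was lower at both, and 0 were called in opposite directions.

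Some members kept the strains apart at all ages. In 9 of 411 members tested in the fit of all 12 libraries, every CN30 library lay above every N2 library, and in 2 every CN30 library lay below, which is 2.19% and 0.487%. Over all genes tested the shares were 0.795% and 0.541%. Besides the pgp, C24A3.1 and F49E10.4 loci, the 9 were the loci of sek-1, the MAP kinase kinase of the p38 immune pathway, of jmjd-3.1, a histone H3 lysine demethylase, of eat-20, a Crumbs-like membrane protein, of cgr-1, and of ZK402.5 and AC8.10. The sek-1 locus (MXLOC_020108) had 13.9, 17.6 and 13.1 FPKM in CN30 at day 0 and 15.9, 21.5 and 23.4 FPKM at days 6, 9 and 12, against 9.64, 7.45 and 11.7 FPKM in N2 at day 0 and 12.0, 10.1 and 12.8 FPKM later. Its lowest CN30 library stood just above its highest N2 library, and neither strain test passed (adjusted p = 0.145 at day 0 and 0.0533 later). The eat-20 locus had 2.27 to 3.65 FPKM in CN30 and 0.62 to 1.63 FPKM in N2, and its gene row also kept the strains apart, at 7.41 to 11.4 FPKM in CN30 and 2.10 to 5.94 FPKM in N2.

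The ZK402.5 locus (MXLOC_021240) had 1.35, 1.05 and 1.43 FPKM in CN30 at day 0 and 2.51, 5.16 and 4.89 FPKM at days 6, 9 and 12, and at most 0.14 FPKM in any N2 library. Its log2 difference was 1.05 ± 0.12 at day 0 (adjusted p = 0.0084) and 2.20 ± 0.24 later (adjusted p = 0.0261). The nearby loci of AC8.10 and AC8.3 went opposite ways. The AC8.10 locus had 0.94 to 1.99 FPKM in CN30 and 0 to 0.47 FPKM in N2, and the AC8.3 locus had 0.78 to 1.44 FPKM in CN30 and 1.65 to 4.25 FPKM in N2. The gene rows of AC8.10 and AC8.3 held the same value as each other in all 12 libraries, so how reads were assigned between them is uncertain, and both loci also overlap AC8.4.

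**Figure D3:**
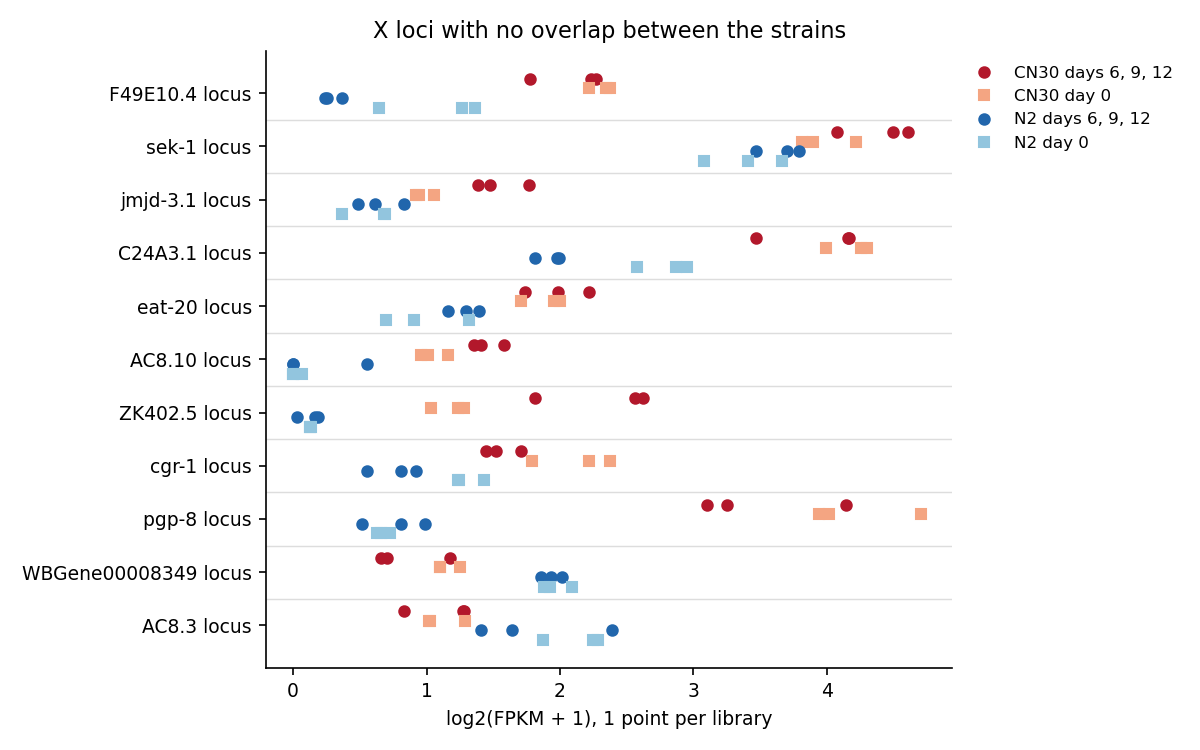
log2(FPKM + 1) of the 11 X loci in which all 6 CN30 libraries lie on one side of all 6 N2 libraries, with 1 point per library. The 9 upper loci are higher in CN30 and the 2 lower ones, WBGene00008349 and AC8.3, are lower, with a wide gap for the pgp locus and a narrow one for sek-1.

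More X loci were called with age than between the strains. In CN30, 169 of 398 members tested were higher and 133 lower at days 6 to 12 than at day 0 (limma, adjusted p under 0.05), 75.9% in all, against 80.9% of all genes tested (46% higher and 34.9% lower). In N2, 103 of 350 were higher and 122 lower, 64.3% against 72.7% of all genes tested (40.7% higher and 32% lower). Rises were 42.5% of the X loci tested in CN30 and 29.4% in N2, and 54.9% and 54.8% of the autosomal loci. Falls were 33.4% of the X loci in CN30 and 34.9% in N2, and 24.9% and 22.5% of the autosomal loci. The median log2 change of the X loci was 0.16 in CN30 and 0.02 in N2, and that of the autosomal loci 0.48 and 0.58. All 6 later libraries lay above all 6 day-0 libraries for 107 of 411 X loci and below for 94, which is 26% and 22.9%, against 35.8% and 25.2% of all genes tested.

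The balance of rises and falls followed the scaling. Under quantile normalization 214 X loci were higher and 85 lower in CN30, and 185 and 48 in N2. Under median-ratio rescaling 140 were higher and 164 lower in CN30, and 98 and 133 in N2. Leaving out an N2 day-0 library gave 91 higher and 62 lower without replicate 1, 92 and 84 without replicate 2, and 102 and 60 without replicate 3. These fits tested 301, 309 and 303 members, against 350. The filter asks for 1 FPKM in 3 libraries, so a locus that reaches it at day 0 alone cannot enter them. Without day 6, 9 or 12 of N2, the counts were 71 higher and 111 lower, 75 and 105, and 78 and 118. These shifts therefore do not measure the balance apart from the filter. Over all genes the median log2 change was 0.24 in CN30 and 0.14 in N2 as deposited, 0.30 in both strains after quantile normalization and -0.03 in both after median-ratio rescaling. The X median was 0.57 in CN30 and 0.56 in N2 after quantile normalization, and -0.06 and -0.12 after median-ratio rescaling, so its sign depends on the scaling. Of 346 members tested with age in both strains, 28.6% were higher in both, 30.1% lower in both and 0 called in opposite directions, against 38.5%, 28.4% and 0.115% of the 13866 genes tested in both; the tests in CN30 and N2 share no library. A further 46 rises and 16 falls passed in CN30 alone, and 2 rises and 17 falls in N2 alone, which does not show that the strains differ there.

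The largest fall in both strains was at a cuticle collagen locus, and a muscle locus was among the largest. The col-167 locus (MXLOC_019961, X:6280016-6332611, plus strand) runs over the collagen genes col-166 to col-170. It had 92.9, 22.6 and 6.16 FPKM at days 6, 9 and 12 in CN30, against 1474, 1191 and 1431 FPKM at day 0 (-5.76 ± 0.86, adjusted p = 0.000863). Its N2 values were 14.2, 25.5 and 24.0 FPKM later, against 1292, 689 and 1260 FPKM at day 0 (-5.59 ± 0.31, adjusted p = 2.07e-05). The ages lay far apart in both strains, and N2 replicate 2 was the lowest of the day-0 libraries; without it the N2 change was -5.89 (adjusted p = 0.000123). The rows of the 5 collagen genes under it were also lower in every later library than in any day-0 library. The unc-27 locus (MXLOC_020206) had 73.9, 32.8 and 18.6 FPKM later and 412, 426 and 492 FPKM at day 0 in CN30 (-3.59 ± 0.45, adjusted p = 0.000402). The N2 libraries had 53.5, 53.9 and 26.5 FPKM later and 355, 359 and 392 FPKM at day 0 (-3.08 ± 0.27, adjusted p = 8.76e-05).

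Further large falls were at the loci of T23E7.2, of pes-8, and of pycr-1, a pyrroline-5-carboxylate reductase of proline synthesis. The T23E7.2 locus (MXLOC_021111) fell by 3.90 on the log2 scale in CN30 (adjusted p = 0.000143) and by 3.96 in N2 (adjusted p = 2.27e-05). The pes-8 locus (MXLOC_020256) had 1.19, 0.51 and 0.37 FPKM later and 30.3, 30.8 and 28.7 FPKM at day 0 in CN30 (-4.22 ± 0.19, adjusted p = 1.59e-05). In N2 it had 0.57, 0.85 and 1.80 FPKM later and 35.8, 3.66 and 34.1 FPKM at day 0 (-3.18 ± 0.81, adjusted p = 0.0114), with N2 replicate 2 far below the other day-0 libraries; without it the change was -4.16 (adjusted p = 0.000205). The pycr-1 locus fell by 3.36 in CN30 and by 2.96 in N2, and its N2 replicate 2, at 4.81 FPKM, was again below replicates 1 and 3, at 19.4 and 16.37 FPKM; without it the N2 change was -3.52 (adjusted p = 0.000265).

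The largest rises included loci of a forkhead gene pair, of signalling genes and of genes known by their sequence names alone. The fkh-4 locus (MXLOC_022357, X:13421932-13428855, minus strand) runs over the forkhead transcription factor genes fkh-3 and fkh-4. It had 12.5, 6.39 and 6.01 FPKM at days 6, 9 and 12 in CN30, against 1.04, 0.78 and 0.40 FPKM at day 0 (2.37 ± 0.29, adjusted p = 0.000345). N2 worms had 12.9, 10.4 and 7.18 FPKM later, against 0.31, 0.27 and 0.26 FPKM at day 0 (3.09 ± 0.22, adjusted p = 4.08e-05). Day 6 was the highest library of each strain, and the ages did not overlap. The gene rows of fkh-3 and fkh-4 were likewise higher in every later library than in any day-0 library. The rgs-7 locus, over a regulator of G-protein signalling (MXLOC_019720), had 24.7, 23.9 and 20.2 FPKM later and 4.77, 4.67 and 4.04 FPKM at day 0 in CN30 (2.12 ± 0.12, adjusted p = 2.17e-05), and 22.5, 19.4 and 20.1 FPKM later and 3, 3 and 2.5 FPKM at day 0 in N2 (2.50 ± 0.15, adjusted p = 2.3e-05). The rgs-7 gene row did not separate the ages, with 6.96 to 7.92 FPKM later and 6.49 to 8.98 FPKM at day 0 in CN30.

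The sec-15 locus, over an exocyst subunit, had 4.89, 5.66 and 4.42 FPKM later and 0.84, 0.97 and 1.73 FPKM at day 0 in CN30 (1.48 ± 0.18, adjusted p = 0.000378), and it rose by 2.50 ± 0.29 in N2 (adjusted p = 0.000286). The sec-15 gene row rose less in CN30 (limma, 0.47, adjusted p = 0.0147) and did not pass in N2 (0.08, adjusted p = 0.74). The C06E2.5 locus had 25.1, 22.2 and 23.9 FPKM later and 6.34, 7.14 and 5.07 FPKM at day 0 in CN30 (1.79 ± 0.14, adjusted p = 4.74e-05). Values in N2 were 26.8, 20.0 and 24.6 FPKM later and 3.40, 1.99 and 3.84 FPKM at day 0 (2.62 ± 0.23, adjusted p = 8.96e-05). R09A8.2 rose in both strains, by 1.46 in CN30 and 2.51 in N2. F28C10.3, F53B3.5 and cutl-21, a cuticlin-like gene whose locus also covers the non-coding RNA gene rncs-1, were among the largest rises in CN30, at 2.33, 2.22 and 2.19, and rose by 1.45, 1.45 and 1.52 in N2.

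**Figure D4:**
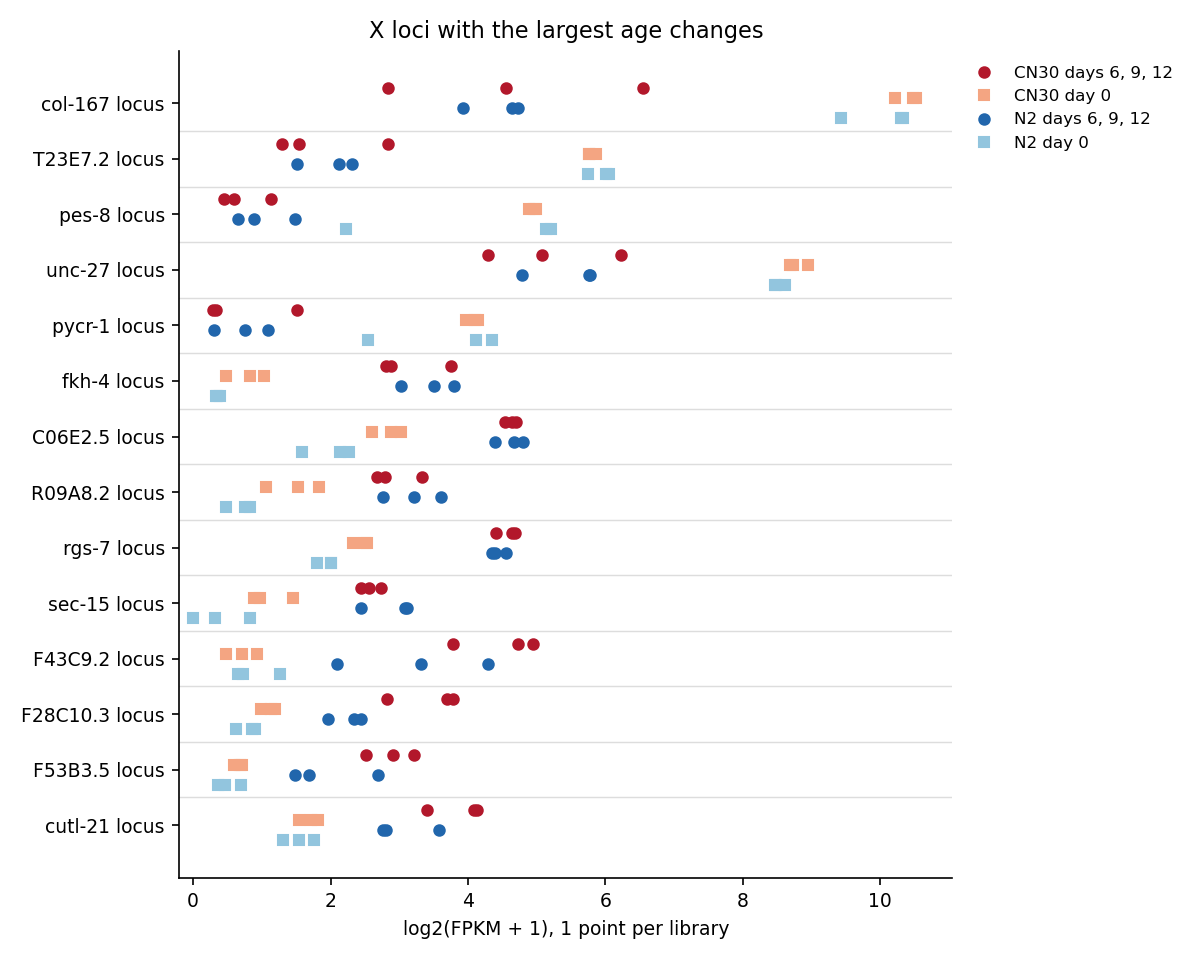
log2(FPKM + 1) of the 14 X loci with the largest age changes, with 1 point per library and colours for strain and age class. Later libraries lie below day 0 in the 5 upper loci and above it in the 9 lower ones, in both strains, and N2 replicate 2 is the low day-0 square for col-167, pes-8 and pycr-1.

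On the deposited scale members with neuronal genes fell more often than they rose, and in CN30 this order turned round under quantile normalization. Of 30 members with a gene from a list of synaptic proteins, channels and neuronal receptors, 19 were tested in CN30, with 4 higher and 11 lower, and 18 in N2, with 1 higher and 13 lower; their median log2 changes were -0.52 and -0.93, against 0.24 and 0.14 for all genes tested. Under quantile normalization the counts were 7 higher and 5 lower in CN30 and 3 and 4 in N2. The locus of slo-2, a potassium channel, averaged 0.517 FPKM later and 2.65 FPKM at day 0 in CN30 (-1.26), and 0.197 FPKM later and 2.54 FPKM at day 0 in N2 (-1.53). The locus of unc-2, a voltage-gated calcium channel, fell by 0.67 in CN30 and by 0.94 in N2. Both were picked after their values were seen. The unc-2 gene row went the opposite way in CN30 (0.56, adjusted p = 0.0179) and did not pass in N2 (-0.37, adjusted p = 0.222). The row of syg-1, another gene of the list, was likewise higher in CN30 (0.53, adjusted p = 0.0456) where its locus was lower (-0.52). The exception that rose in both strains was the sax-3 locus, over a Robo guidance receptor (MXLOC_021440), with 39.7, 40.7 and 35.4 FPKM later and 10.9, 12.0 and 9.52 FPKM at day 0 in CN30 (1.75 ± 0.11, adjusted p = 2.76e-05). In N2 it had 25.2, 21.8 and 30.5 FPKM later and 9.67, 6.98 and 10.9 FPKM at day 0 (1.41 ± 0.20, adjusted p = 0.00081).

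The loci of mec-4 and mec-7, a touch-receptor channel subunit and a touch-receptor tubulin, did not pass in any comparison. The mec-4 locus ranged from 5.90 to 9.85 FPKM and also covers cas-1, and the mec-7 locus ranged from 4.42 to 9.01 FPKM. The cas-1 row fell with age in N2 (limma, -0.35, adjusted p = 0.0107) and did not pass in CN30 (0.12, adjusted p = 0.262). At days 6 to 12 the cas-1 row was higher in CN30 than in N2 (0.45, adjusted p = 0.037). The mec-7 locus also covers ZK154.4, whose own row had 8.08 to 16.22 FPKM and did not pass in any comparison. The mec-7 gene row did change, with 3.28, 0 and 4.42 FPKM later and 9.62, 7.73 and 9.85 FPKM at day 0 in CN30 (-1.81, adjusted p = 0.0319). In N2 that row was listed at 0 in all later libraries, against 10.25, 9.25 and 12.48 FPKM at day 0 (adjusted p = 1.63e-05). The summed FPKM of 7 neuron markers among the annotated genes went the other way from the list, at 148.3 to 202.3 later and 108.7 to 125.7 at day 0 in CN30, and 124.4 to 150.3 later and 110.1 to 115.4 at day 0 in N2. Between strains at days 6 to 12, 3 of 12 tested members of the list were higher in CN30 and 0 lower, against 9.77% of all genes higher and 3.21% lower. They were the loci of lgc-47, a ligand-gated ion channel, of glr-6, a glutamate receptor, and of unc-10, the RIM protein of the presynaptic active zone; 1 passed under quantile normalization.

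Loci of muscle, matrix and stress genes were few and mostly lower with age, where 34.9% of all genes tested were lower in CN30 and 32% in N2. Of 5 muscle members, 4 were lower in each strain. They were unc-27, tnt-3 (troponin T), sgca-1 (alpha-sarcoglycan) and unc-98, and under quantile normalization 3 were lower and 1 higher in CN30 and 2 lower and 1 higher in N2. The tnt-3 locus had 7.11, 5.10 and 3.58 FPKM later and 32.4, 29.3 and 31.4 FPKM at day 0 in CN30 (-2.39 ± 0.21, adjusted p = 8e-05). In N2 it had 3.71, 3.12 and 3.48 FPKM later and 32.3, 23.3 and 32.8 FPKM at day 0 (-2.77 ± 0.18, adjusted p = 2.84e-05). Of 4 matrix members, 3 were lower in each strain, namely lam-2 (laminin gamma) and the ADAMTS proteases adt-1 and adt-2, while the locus over sdn-1 (syndecan) was higher; under quantile normalization 2 were lower in CN30 and 0 in N2. All 3 stress members, hsp-43 (a small heat shock protein), atf-4 (a bZIP factor) and dve-1 (a homeodomain factor of the mitochondrial unfolded protein response), were lower in both strains; dve-1, atf-4 and hsp-43 changed by -1.13, -1.11 and -1.23 in CN30 and -1.12, -1.10 and -1.32 in N2, and under quantile normalization 3 passed in CN30 and 2 in N2. The hsp-43 gene row went the opposite way, at 2.97 in CN30 (adjusted p = 1.14e-05) and 1.70 in N2 (adjusted p = 0.0237). The innexin locus unc-9 was lower in both strains, at -1.0 in CN30 and -1.25 in N2, and did not pass under quantile normalization.

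Loci of transcription factors split. Of 24 such members, 22 were tested with age in CN30, with 12 higher and 5 lower, and 19 in N2, with 6 higher and 6 lower. Over all genes tested 46% were higher and 34.9% lower in CN30, and 40.7% and 32% in N2. Under quantile normalization the counts were 15 and 2 in CN30 and 12 and 3 in N2. The locus of nhr-71, a nuclear hormone receptor, had 13.3, 9.87 and 9.20 FPKM later and 5.53, 4.71 and 4.01 FPKM at day 0 in CN30 (1.03 ± 0.18, adjusted p = 0.00167), and 13.3, 12.9 and 9.91 FPKM later and 3.35, 3.67 and 3.56 FPKM at day 0 in N2 (1.52 ± 0.17, adjusted p = 0.000247). The nhr-71 gene row did not pass with age in CN30 (limma, 0.43, adjusted p = 0.0636) or in N2 (0.12, adjusted p = 0.575). The locus of lin-15B, a chromatin regulator picked after its values were seen, averaged 11.1 FPKM later and 2.71 FPKM at day 0 in CN30 (1.70), and 7.63 FPKM later and 2.01 FPKM at day 0 in N2 (1.51). The locus of lin-14, a timing factor of larval development, fell by 0.76 in CN30 (adjusted p = 0.00393) and by 0.97 in N2 (adjusted p = 0.00917). At days 6 to 12 it had 7.10, 10.1 and 8.86 FPKM in CN30, against 3.83, 6.30 and 4.39 FPKM in N2 (0.74 ± 0.16, adjusted p = 0.0476). The lin-14 gene row did not pass with age in CN30 (limma, 0.06, adjusted p = 0.876) and fell in N2 (-1.60, adjusted p = 0.0102). No member carried a gene of the lists of vitellogenins, sperm, oocyte, germline, fatty acid or ribosomal protein genes, or of the germline repressors of the X.

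A single member carried a dosage compensation gene. The sdc-1 locus (MXLOC_020973, X:16275773-16282300, plus strand), over a zinc finger protein that directs the complex to the X, had 10.7, 5.72 and 7.82 FPKM later and 0.94, 1.89 and 2.09 FPKM at day 0 in CN30 (1.78 ± 0.27, adjusted p = 0.000929). In N2 it had 12.0, 11.3 and 7.45 FPKM later and 2.22, 1.78 and 0.79 FPKM at day 0 (2.13 ± 0.29, adjusted p = 0.000632). Among 14 annotated genes of dosage compensation and sex determination in the table, on any chromosome, 13 were higher with age and 1 lower of 14 tested in CN30, and 10 were higher and 1 lower of 13 tested in N2, with the same counts under quantile normalization and median-ratio rescaling; of all genes tested 46% were higher in CN30 and 40.7% in N2. The fall in both was dpy-30, and sex-1, a nuclear receptor through which the X is counted in sex determination, averaged 28.5 ± 4.4 FPKM later and 3.14 ± 0.601 FPKM at day 0 in CN30 (2.83, adjusted p = 2.31e-05), and 15.3 ± 4.21 FPKM later and 3.37 ± 0.8 FPKM at day 0 in N2 (1.89, adjusted p = 0.000494; limma, SD over 3 libraries each). At days 6 to 12, sex-1, dpy-21 and dpy-27 were higher in CN30 than in N2, 3 of 14 tested against 9.77% of all genes, and 0 were lower by limma. Of 9 chromatin genes listed for the silencing of the X in the germ line, among them mes-2 and mes-4, 9 were higher with age in CN30 and 8 in N2, against the same shares of all genes, again with the same counts under both rescalings.

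The strains differed in their age change at few X loci. The product of strain and age class passed for 4 of 411 members tested, all more positive in CN30, which is 0.973% against 2% of all genes tested (1.15% higher and 0.852% lower), and 86 members had an unadjusted p under 0.05. The cst-1 locus (MXLOC_019787, X:4338162-4345578, over a Hippo-type kinase) had 5.22, 6.57 and 7.44 FPKM later and 1.35, 1.38 and 0.96 FPKM at day 0 in CN30, and 1.60, 2.63 and 3.38 FPKM later and 1.89, 1.88 and 1.87 FPKM at day 0 in N2. The change in CN30 minus that in N2 was 1.46 ± 0.28 on the log2 scale (adjusted p = 0.0298). It did not pass under quantile normalization (1.16, adjusted p = 0.0538), nor in the fits without any single library other than N2 day 12, N2 day-0 replicate 2 and CN30 day 6, with adjusted p from 0.0575 to 0.0876. The cst-1 gene row had 17.78, 29.8 and 42.97 FPKM later and 5.76, 8.05 and 9.02 FPKM at day 0 in CN30, and 6.63, 7.64 and 18.5 FPKM later and 7.18, 5.20 and 9.14 FPKM at day 0 in N2. The strains overlapped in that row at both ages, and its interaction did not pass (1.35, adjusted p = 0.171). The locus also covers F14H12.3, whose row passed the interaction in the same direction by limma (2.33, adjusted p = 0.0401). It had 49.18, 72.56 and 73.11 FPKM later and 14.81, 16.07 and 13.4 FPKM at day 0 in CN30. In N2 the F14H12.3 row had 17.38, 38.08 and 36.83 FPKM later and 27.14, 58.34 and 28.31 FPKM at day 0. The other 3 members that passed, singled out after their values were seen, were the loci of lgc-47, phf-33 and K08H2.5. Without N2 day 12 the count was 46, without N2 day-0 replicate 2 it was 18, without CN30 day 6 it was 15, and without any other library it was 0, with 51 to 71 at an unadjusted p under 0.05.

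Where a member's gene had a row of its own, the rows of the locus and of the gene were called the same way for some pairs and opposite ways for a few. In CN30, 88 of 266 pairs tested were higher with age in both rows, 71 lower in both and 12 opposite. In N2, 37 of 234 were higher in both, 61 lower in both and 13 opposite. Across pairs, Pearson's r between the log2 changes of the rows was 0.73 in CN30 (n = 266) and 0.69 in N2 (n = 234), a description over rows that share libraries and overlapping reads. For the strain difference it was 0.54 at days 6 to 12 (n = 227) and 0.25 at day 0 (n = 235), with 14 pairs and 1 pair higher in CN30 in both rows.

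The opposite pairs were large in some cases. The F43C9.2 locus (MXLOC_019822) had 12.8, 25.6 and 29.9 FPKM later and 0.63, 0.39 and 0.90 FPKM at day 0 in CN30 (3.79 ± 0.32, adjusted p = 6.9e-05), the largest rise in that strain. In the same libraries the F43C9.2 gene row had 10.98, 15.03 and 16.71 FPKM later and 20.7, 22.2 and 23.0 FPKM at day 0 (-0.61, adjusted p = 0.0107). The hsp-43 locus had 17.9, 13.2 and 12.8 FPKM later and 35.7, 35.9 and 34.0 FPKM at day 0 in CN30 (-1.23), whereas the hsp-43 gene row had 23.8, 24.5 and 23.8 FPKM later and 2.31, 2.09 and 2.18 FPKM at day 0 (2.97, adjusted p = 1.14e-05). C14F11.4, which that locus also covers, had a row that fell with age, as the locus did. The pairs of F43C9.2, sek-3, C03A3.2, F17E5.2, vwa-8, hsp-43 and ergi-3 were opposite in both strains. Between the strains, the F49E2.5 pair was opposite at day 0, with the locus higher in CN30 (0.62) and the gene row lower (-0.94), and the ctsa-2 pair at days 6 to 12 (2.11 for the locus and -0.97 for the gene row). For such genes a direction depends on the row read, and how the reads of both rows were divided was not tested.

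**Figure D5:**
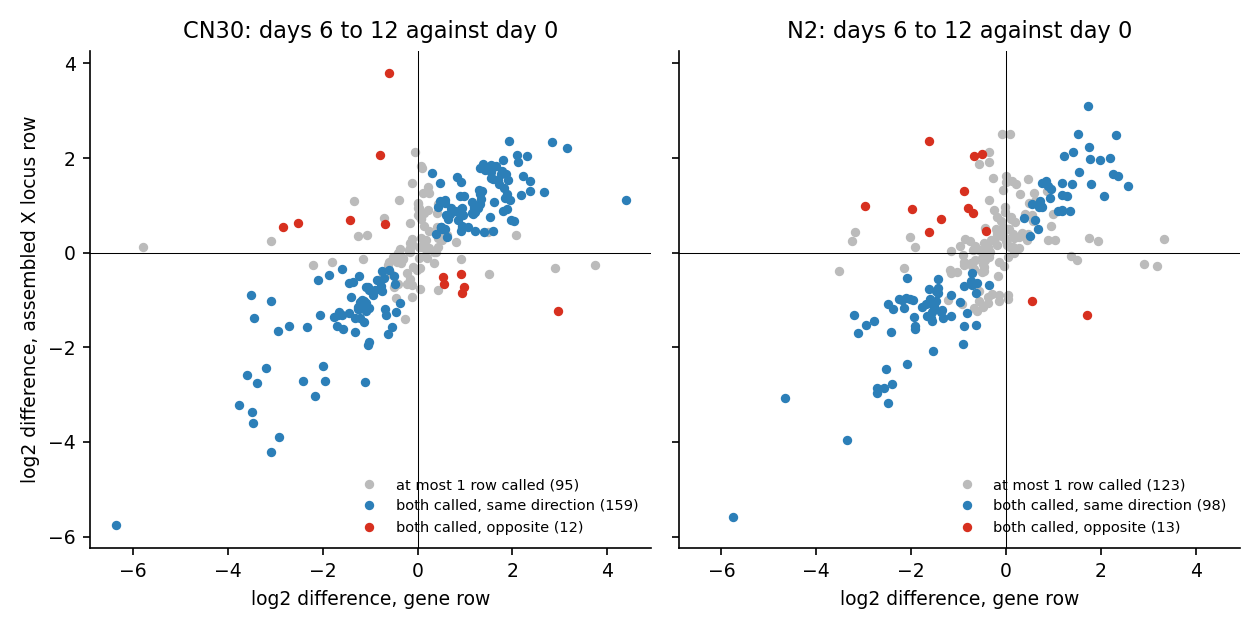
Log2 difference between days 6 to 12 and day 0 of each assembled X locus (vertical axis) against that of the annotated gene under it (horizontal axis), CN30 left (266 pairs) and N2 right (234 pairs). Most pairs called in both rows lie in the same quadrants, and 12 pairs in CN30 and 13 in N2 are called in opposite directions.

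Some X loci varied little. Of the 502 members, 40 had 5 FPKM or more in all 12 libraries, a floor on level that col-167 and unc-27 also pass, and the acly-1 and sym-4 loci were among those of them with the smallest spread. The acly-1 locus (MXLOC_019550), over ATP citrate lyase, had 58.8, 55.7 and 50.4 FPKM at days 6, 9 and 12 and 47.7, 47.6 and 52.4 FPKM at day 0 in CN30, and 56.6, 53.8 and 41.4 FPKM later and 40.2, 39.3 and 44.6 FPKM at day 0 in N2. The acly-1 gene row was at most 0.80 FPKM in any library and listed at 0 in 10 of 12, so this enzyme's signal stood almost wholly in the assembled locus. The sym-4 locus, which also covers the proton pump gene vha-20, had 26.2 to 28.9 FPKM in CN30 and 19.5 to 26.7 FPKM in N2, and neither strain's age test passed (adjusted p = 0.48 in CN30 and 0.867 in N2). The vha-20 row was not steady. It had 60.98 to 74.79 FPKM later and 166.24 to 185.91 FPKM at day 0 in CN30 (limma, -1.36, adjusted p = 3.7e-05). In N2 that row had 40.87 to 48.95 FPKM later and 134.98 to 166.1 FPKM at day 0 (-1.70, adjusted p = 3.12e-05). Among the 6 members with the highest mean, the lmp-1 locus, over a lysosomal membrane protein, was higher with age. It had 50.2, 52.4 and 54.4 FPKM later and 33.9, 41.4 and 38.4 FPKM at day 0 in CN30 (0.46 ± 0.09, adjusted p = 0.00348). In N2 it had 43.6, 40.9 and 34.6 FPKM later and 24.3, 20.6 and 29.0 FPKM at day 0 (0.67 ± 0.15, adjusted p = 0.00705). The lmp-1 gene row did not pass with age in CN30 (limma, 0.24, adjusted p = 0.0851) or in N2 (-0.10, adjusted p = 0.593). The nmy-1 locus, over a non-muscle myosin heavy chain, was lower, at 32.8, 31.8 and 29.4 FPKM later and 104.14, 110.08 and 93.96 FPKM at day 0 in CN30 (-1.68 ± 0.09, adjusted p = 1.75e-05), and 15.53, 15 and 23.81 FPKM later and 105.82, 78.35 and 100.71 FPKM at day 0 in N2 (-2.35 ± 0.21, adjusted p = 8.78e-05).

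The 3 members without an annotated gene were low. The locus MXLOC_022716 (X:17687702-17693175, minus strand) had 1.21, 0.84 and 0.88 FPKM later and 2.26, 2.49 and 2.77 FPKM at day 0 in CN30 (-0.83 ± 0.12, adjusted p = 0.000832), and 0.29, 0.32 and 0.51 FPKM later and 1.43, 1.42 and 1.88 FPKM at day 0 in N2 (-0.91 ± 0.14, adjusted p = 0.000981). MXLOC_022688 (X:17250950-17252155) ranged from 1.48 to 2.88 FPKM in CN30 and from 1.05 to 3.27 FPKM in N2. It fell with age in N2 (-0.74 ± 0.16, adjusted p = 0.00549), but not under quantile normalization (0.02, adjusted p = 0.929). MXLOC_021609 stayed under 1 FPKM in every library. Along the chromosome, calls were found in all segments. In CN30, 62 of 141 members tested in the left segment of the chromosome rose with age, 51 of 128 in the middle and 56 of 129 in the right, where the 3 segments have equal length, and 47, 43 and 43 fell. At days 6 to 12, 16, 14 and 13 members in these segments were higher in CN30 than in N2. These shares were not compared by a test.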

How the data were processed

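Whole-worm RNA libraries of CN30 and N2 were analysed from the authors' deposited mRNA table, whose values are FPKM per row, and from their deposited table of assembled transcripts, which gives positions and exons and no levels. The submitters' processing notes name HISAT, StringTie and the build WBcel235. Their versions, roles and settings are not given in the sources used here, and neither are depth and strandedness, so no counting interval can be given. The lncRNA table was not used here.

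Levels were analysed as log2(FPKM + 1), and fold changes are on that scale, which understates the change of low loci. Rows with at least 1 FPKM in at least 3 libraries of a comparison were fitted with limma 3.58.1 in R 4.3.3 (trended empirical Bayes, two-sided), with Benjamini-Hochberg adjustment over all rows tested and a threshold of 0.05. The fits were CN30 against N2 at day 0 (3 libraries each), CN30 against N2 at days 6 to 12 with day as a factor, days 6 to 12 against day 0 within each strain, and strain by age class over 12 libraries. The later libraries, 1 per day, stood in as replicates of an age class. With 3 libraries against 3, the smallest p of exact permutation is 0.1, so that test was not used. Plots were drawn with Matplotlib 3.10.9 and summaries made with NumPy 2.4.6 and pandas 2.3.3 under Python 3.11.15. The fit was tested on simulated data.

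The members and gene lists were chosen with earlier results of these data known. The text names, per comparison, the 5 largest rises and falls among called members whose higher group averaged at least 5 FPKM and whose groups did not overlap (for days 6 to 12, the same sign at each day). It also names the 6 highest members, those without a gene, some of the 5 steadiest, and some of up to 3 chosen per list. Members named outside this rule are cases of a count given in the text or were picked after their values were seen. Not all of them are marked as such. Results were recomputed after quantile normalization, after median-ratio rescaling, with a pseudocount of 0.1, without the filter, in a joint fit, without the day term, with a replicate block and with each library left out.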

Additional observations from a re-analysis of the deposited data

Results flagged for a closer look

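At 4 X loci the interaction test of strain and age class passed. Differences are the log2 change in CN30 minus that in N2, with limma's adjusted p. For the cst-1 locus (MXLOC_019787) the difference was 1.46 (adjusted p = 0.0298), and its values are given above; it did not pass under quantile normalization (adjusted p = 0.0538).

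For the lgc-47 locus (MXLOC_022000), over a ligand-gated ion channel, it was 1.36 (adjusted p = 0.048). This locus had 2.37, 4.47 and 3.70 FPKM at days 6, 9 and 12 and 0.72, 1.12 and 0.64 FPKM at day 0 in CN30, against 0.25, 0.32 and 0.85 FPKM later and 0.54, 0.38 and 0.67 FPKM at day 0 in N2. For the phf-33 locus (MXLOC_022336), over a PHD finger gene, it was 1.39 (adjusted p = 0.0246). Later CN30 libraries had 1.32, 2.87 and 2.39 FPKM, and every other library had at most 0.34 FPKM. For the K08H2.5 locus (MXLOC_022331) the difference was 0.97 (adjusted p = 0.0234), since the locus fell less in CN30. It had 0.38, 0.58 and 0.49 FPKM later and 1.86, 2.19 and 1.99 FPKM at day 0 in CN30, and it was listed at 0 in all later N2 libraries, against 3.45, 2.43 and 3.16 FPKM at day 0 in N2. The levels of these 3 loci are low, and the count of 4 changed with the libraries left out.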

How the results depend on the processing

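Counts of called X loci are given here in the order of the report. At day 0, 12 members were called. The count was 19 under quantile normalization, 21 in the joint fit of all 12 libraries, and 1 to 36 with a library left out. Same-numbered day-0 libraries did not deviate together (r of 0.059, -0.035 and -0.017), so the numbers do not pair the libraries; with the replicate number as a block 4 were called. At days 6 to 12, 46 were called. The count was 14 under quantile normalization, 0 with no filter (177 at an unadjusted p under 0.05), 5 without the day term, 101 in the joint fit, and 0 to 31 with a library left out. For age the counts were 225 in N2 and 302 in CN30, with 153 to 196 and 242 to 284 after leaving out a library, and no alternative moved them by over 1.5 times. The loci called changed more than the counts. Under quantile normalization 150 of the 225 calls in N2 and 250 of the 302 in CN30 were kept. The interaction had 4, with 9 under no filter, 10 under median-ratio rescaling and 0 to 46 with a library left out. The cause of these shifts was not tested.

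Single members named by the rule kept direction and call in 962 of their re-fits, lost the call in 139, and reversed in 2. Both reversals were age changes in N2 under quantile normalization, at the adt-2 locus (MXLOC_020088, 0.05, adjusted p = 0.832) and at MXLOC_022688 (0.02, adjusted p = 0.929).

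With depth unknown, low loci cannot be given a counting error. Age is confounded with the replicate structure, since each later day has 1 library per strain. Reads shared between a locus row and a gene row, or between strands, cannot be told apart.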
